A study of Mus musculus with 12 samples.

Results

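A set of 30 listed transcripts of neurons, synapses and central nervous system glia was followed in RNA sequencing libraries of the quadriceps femoris, which extends the knee. The 30 genes, of 49315 in each count file, had been listed because of their higher levels in old exercised than in old sedentary muscle, so the count of members called for that difference is given below as a description and supports nothing. The 12 libraries came from C57BL/6 mice, an inbred strain, and no transgene or deletion is labelled. Young mice were 18 weeks and old mice 28 months of age, and at each age 3 libraries were from sedentary mice and 3 from mice that ran on a treadmill over 8 weeks, in 40 minute sessions 3 times a week at 8 rising to 12 m/min. The series title names ARNT, a partner of hypoxia-inducible and dioxin-binding transcription factors. The labels give each library as a separate sample without naming the animal, so p-values measure the spread between samples, which may be technical.

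Synaptic transmission starts when an action potential opens calcium channels in a nerve terminal and SNARE proteins fuse transmitter vesicles with its membrane. On the receiving side, scaffold proteins hold glutamate receptors in place, and astrocytes clear the transmitter. In skeletal muscle the nerve supply consists of motor, sensory and sympathetic axons wrapped by Schwann cells. The cell bodies of these axons, where most neuronal messenger RNA is made, lie in the spinal cord and ganglia outside the muscle, and central glia are not part of peripheral nerve.

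The sequence before the transcription start of the members was inspected as a description, and shared control of these genes was not tested. RefSeq (GRCm38.p6) gave 26 start windows for 19 of the 30 members, each from 250 bases before to 50 bases after a start. A set of 3 is shown 5′ to 3′ up to the first annotated exon. Syn1 was chosen for its pair of regulatory motifs, Adcy1 for a motif that ARNT dimers can bind, and Gfap as the glial member. Capitals mark TTCAGCACC (the left part of RE1, the element bound by the neuronal gene repressor REST) and TGACGTCA (the cyclic AMP response element) in Syn1, and CACGTG, which holds the hypoxia response core ACGTG on both strands, in Adcy1. Gfap carries no capitals because none of these motifs was found in its stretch.
Syn1, chrX:20921005-20921168, minus strand: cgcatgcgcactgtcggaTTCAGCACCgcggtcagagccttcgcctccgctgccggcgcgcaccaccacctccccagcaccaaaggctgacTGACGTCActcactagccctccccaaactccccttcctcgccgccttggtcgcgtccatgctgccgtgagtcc
Adcy1, chr11:7063183-7063432, plus strand: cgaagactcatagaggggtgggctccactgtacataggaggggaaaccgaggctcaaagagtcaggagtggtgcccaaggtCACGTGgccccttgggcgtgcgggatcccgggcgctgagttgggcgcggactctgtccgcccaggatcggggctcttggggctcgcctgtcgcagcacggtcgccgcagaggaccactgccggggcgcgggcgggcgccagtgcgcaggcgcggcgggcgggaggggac
Gfap, chr11:102897201-102897450, minus strand: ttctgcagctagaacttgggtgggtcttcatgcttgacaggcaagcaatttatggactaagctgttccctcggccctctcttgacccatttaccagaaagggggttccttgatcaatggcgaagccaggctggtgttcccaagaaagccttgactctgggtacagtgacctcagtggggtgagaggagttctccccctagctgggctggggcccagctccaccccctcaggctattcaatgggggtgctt

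Motifs were searched on both strands of the 300-base windows. The hypoxia response core ACGTG was in 2 of 26 member windows (7.69%), those of Adcy1 and Tubb4a, and in 19.7% of all 32544 windows. GCGTG, the core of the dioxin response element, was in 11 member windows (42.3%) and in 32.6% of all windows. TGACG, the short form of the cyclic AMP response element that also lies within TGACGTCA, was in 3 member windows (11.5%) and in 20.9% of all. TTCAGCACC was in 1 member window (3.85%) and in 0.372% of all, and the right part of RE1, GGACAG, was in 9 (34.6%) and in 22.3%. The muscle E-box CAGCTG, a binding sequence of myogenic factors, was in 6 member windows (23.1%) and in 16.4% of all. The members' windows had a median GC content of 57.7%, and all windows one of 53%. These matches describe letters in a window and do not show that a factor was bound.

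Library totals ran from 23.3 to 27.6 M counts, so that 1 count was worth 0.0362 to 0.0430 CPM, a count scaled to a library total of 1 M. The 8 muscle fibre genes, among them Acta1, Ckm and Myh4, summed to 137754 to 178888 CPM per library, so the fibre markers of the labelled tissue were high in all 12. Each of the 12 pairs of libraries within a group differed beyond sampling noise, the chi-square statistic being at least 10.8 times its degrees of freedom. Some libraries stood apart. Young sedentary library 2 held keratinocyte genes (Krt5 at 143 CPM, against at most 0.215 CPM elsewhere), and young sedentary library 1 and old exercised library 6 held the most Adipoq, an adipocyte hormone, at 147 and 107 CPM. Sex is not labelled. Xist, which is transcribed from the inactive X of females, was high in 5 libraries, namely 2 young sedentary, 2 young exercised and 1 old exercised (library 4), and in 0 old sedentary libraries.

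The 30 members together were higher in old exercised muscle than in any other library. Their summed level was 66.1, 91.3 and 85.6 CPM in old exercised libraries 4, 5 and 6. It was 17.2, 21.3 and 21.6 CPM in old sedentary muscle, 29.4, 30.5 and 29.4 CPM in young sedentary and 22.7, 24.1 and 22.1 CPM in young exercised muscle. The group means were 81.0 ± 13.2 CPM (SD, n = 3) after exercise and 20.0 ± 2.47 CPM (SD, n = 3) without it in old mice, a ratio of 4.04. In counts, the old exercised group held 6132 reads of the members and the old sedentary group 1559. In bulk muscle, a change in the number of cells of a type cannot be told apart from a change in RNA per cell. Nervous tissue RNA in a sample cannot be told apart from either here, and its part was not tested. All 3 old exercised libraries lay above the other 9 libraries in 26 of the 30 members, and 2.52% of the 15304 genes tested did so. The exceptions were Tubb4a, Enc1, Stmn2 and Slc32a1. Lamp5 is among the 26 by a margin of 0.0796 against 0.0774 CPM, and Lamp5 and Slc32a1 were not among the genes tested. Compared with old sedentary muscle alone, the old exercised libraries lay above in 29 members and below in 0. Among all genes tested 9.71% lay above and 5.41% below. The members were listed by this difference, so the counts of 26 and 29 are a description and support nothing.

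**Figure D1:**
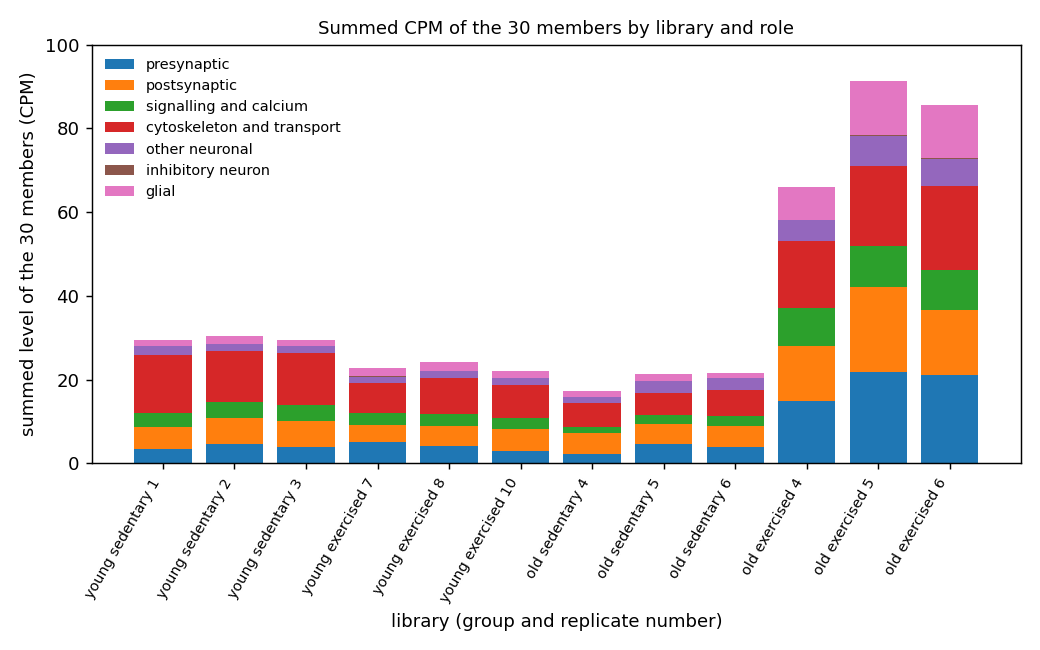
Stacked bars of the summed level of the 30 members (CPM, vertical axis from 0) in each of the 12 libraries (horizontal axis), coloured by role. The 3 old exercised libraries reach 66.1 to 91.3 CPM and the other 9 stay between 17.2 and 30.5 CPM, without error bars because each bar is 1 library.

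A fit across all genes with edgeR's quasi-likelihood test was made on 28 members. Slc32a1 and Lamp5 had too few counts. For old exercised over old sedentary muscle, 20 members were past an adjusted p of 0.05 and higher, against 0.497% of all genes tested, and 0 were lower, against 0.0849% (0.582% in either direction). That contrast chose the members, so their count is a description. The median log2 fold change was 2.62 in the 28 members and 0.008 in all genes tested. The count depended on single libraries. It fell from 20 to 6 without old sedentary library 4 or library 5, to 8 without old sedentary library 6, to 10 without old exercised library 5 and to 11 without old exercised library 6. It was 17 without old exercised library 4. The number of all genes called fell too, from 89 to 14, 10 and 13 without old sedentary library 4, 5 or 6. It was 29, 21 and 63 without old exercised library 5, 6 or 4.

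The presynaptic members are genes of vesicles and their release. Snap25, a SNARE protein of the terminal membrane, was at 3.51, 6.48 and 6.33 CPM in old exercised libraries 4, 5 and 6. Its old sedentary values were 0.290, 0.341 and 0.745 CPM, and the 6 young libraries ranged from 0.215 to 0.658 CPM. The old exercised libraries did not overlap any of these, and the ratio of the old group means was 11.9. Syt1, the calcium sensor of fast release, was at 3.83, 5.03 and 4.74 CPM after exercise in old mice and at 0.470, 0.683 and 0.455 CPM without. Young exercised libraries held Syt1 at 1.08, 0.749 and 0.696 CPM and young sedentary ones at 0.645, 0.489 and 0.619 CPM. Syt1 was the 1 member whose young exercised libraries all lay above the young sedentary ones, and 2.46% of all genes tested did so. Syp, a vesicle membrane protein, was the presynaptic member with the smallest ratio (2.05), at 2.67, 3.14 and 3.06 CPM against 1.16, 1.56 and 1.61 CPM in the old groups.

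The other presynaptic members were likewise highest in old exercised muscle, and the order of the other groups varied from gene to gene. Rab3c, a vesicle GTPase, was at 1.08, 1.85 and 1.63 CPM in old exercised and at 0.0362, 0.266 and 0.0414 CPM in old sedentary muscle. Syn1, which ties vesicles to the cytoskeleton, was at 1.08, 1.61 and 1.23 CPM after exercise in old mice and at 0.0724, 0.417 and 0.165 CPM without. Sv2a, a vesicle glycoprotein, was at 1.28, 1.69 and 2.07 CPM against 0.145, 0.455 and 0.538 CPM. For these genes every old exercised value was above the highest of the other 9 libraries. Bsn, a scaffold of the active zone, was at 1.36, 2.12 and 2.15 CPM in old exercised muscle and at 0.145, 0.948 and 0.455 CPM in old sedentary muscle. Young sedentary library 2, the library with keratinocyte genes, held the highest Bsn value of the other groups at 1.10 CPM. The 7 presynaptic members summed to 19.3 ± 3.92 CPM in old exercised and 3.67 ± 1.21 CPM in old sedentary muscle (SD, n = 3 each).

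The postsynaptic members belong to glutamatergic synapses. Dlg4 (PSD-95), the main scaffold of the postsynaptic density, was at 5.90, 9.27 and 6.92 CPM in old exercised muscle. It was already counted in every other library, with 3.51, 3.57 and 3.06 CPM in old sedentary muscle and 2.38 to 4.20 CPM in young muscle. Its ratio of old means was 2.18. Ddn (dendrin), a dendritic protein also known from kidney podocytes, was at 3.95, 5.15 and 4.70 CPM after exercise in old mice and at 0.688, 0.493 and 0.869 CPM without. Grin2b, an NMDA receptor subunit, was at 1.24, 1.85 and 1.15 CPM against 0.0724, 0.0379 and 0.248 CPM. Grin2a, another subunit of that receptor, was at 0.798, 1.73 and 1.23 CPM against 0.145, 0.114 and 0.124 CPM. Shank1, a scaffold that links the density to actin, was at 1.44, 2.12 and 1.47 CPM against 0.434, 0.607 and 0.538 CPM. In these 5 genes, too, the lowest old exercised library was above all 9 others. Per kilobase of exon, Dlg4 (1.48 RPKM, which is CPM divided by exon length in kilobases) was the most abundant postsynaptic member in old exercised muscle and Grin2b (0.0569 RPKM) the least.

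The signalling and calcium members were led by Adcy1, a calcium-stimulated adenylyl cyclase whose start window is shown above. Adcy1 was at 4.39, 4.32 and 3.94 CPM in old exercised muscle and at 0.941, 0.759 and 1.49 CPM in old sedentary muscle. Young sedentary muscle had 1.98, 2.16 and 2.98 CPM and young exercised muscle 1.58, 1.77 and 1.56 CPM, so the levels of the 4 groups did not overlap. Vsnl1, a neuronal calcium sensor, was at 1.40, 1.14 and 1.59 CPM in old exercised muscle and at 0.181, 0.152 and 0.124 CPM in old sedentary muscle. Camkv, a kinase-like protein of dendritic spines, was at 1.64, 2.40 and 2.03 CPM against 0.290, 0.911 and 0.827 CPM. Sult4a1, a brain sulfotransferase, was at 0.838, 1.10 and 1.27 CPM against 0, 0.190 and 0.0414 CPM. All 4 had old exercised libraries above the other 9. Jph3, a junctophilin that joins the cell membrane to the endoplasmic reticulum in neurons, stayed under 1 CPM on average in every group, with 0.638 to 1.02 CPM in old exercised and 0.0379 to 0.0827 CPM in old sedentary muscle.

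The cytoskeletal and transport members varied most in the other groups. Kif5a, a kinesin of axonal transport, was at 4.79, 6.95 and 6.88 CPM in old exercised muscle, at 1.34, 1.33 and 1.41 CPM in old sedentary muscle and at 1.12 to 2.11 CPM in young muscle. Nefl, the light neurofilament, was at 1.12, 1.22 and 1.11 CPM against 0.145, 0.114 and 0.124 CPM in the old groups. Add2, a spectrin-binding adducin, was at 0.918, 1.10 and 1.07 CPM against 0, 0.0759 and 0.0827 CPM. These rest on 78 and 4 counts, a ratio of 20.1 with an exact 95% interval of 7.56 to 75.8 that covers counting error only. Kif5a, Nefl and Add2 were above all 9 other libraries.

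Tubb4a, Enc1 and Stmn2 differed from that pattern. Tubb4a, a neuronal and oligodendrocyte tubulin, was at 2.11, 2.16 and 1.83 CPM in old exercised and 0.362, 0.304 and 0.496 CPM in old sedentary muscle, but young sedentary muscle already had 2.41, 1.51 and 1.74 CPM. Enc1, an actin-binding protein, was at 4.19, 4.60 and 7.08 CPM in old exercised muscle and at 5.20, 6.89 and 4.68 CPM in young sedentary muscle, so these 2 groups overlapped. Old sedentary muscle had Enc1 at 1.92, 1.67 and 2.15 CPM and young exercised muscle at 1.77, 3.11 and 2.42 CPM. Stmn2, a regulator of axonal microtubules, was at 2.99, 3.03 and 2.11 CPM in old exercised and 2.10, 1.86 and 1.94 CPM in old sedentary muscle. A pair of young sedentary libraries, at 3.78 and 4.22 CPM, exceeded every old exercised value of Stmn2.

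Rtn1, an endoplasmic reticulum protein of neurons and neuroendocrine cells, was at 3.63, 4.95 and 4.18 CPM in old exercised and 1.09, 2.01 and 2.19 CPM in old sedentary muscle. Celf4, a neuronal RNA-binding protein, was at 1.36, 2.08 and 2.07 CPM against 0.253, 0.721 and 0.455 CPM. Slc32a1, the vesicular transporter of GABA and glycine, had 10 counts in old exercised and 1 in old sedentary muscle. Lamp5, a membrane protein of some inhibitory neurons, had 7 counts and 1. At these counts both inhibitory neuron members were near the detection limit.

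The 3 glial members, all better known from the central nervous system, were high in the same libraries as the neuronal ones. Slc1a2, the main astrocyte glutamate transporter, was at 4.75, 7.70 and 8.08 CPM in old exercised muscle. It was at 0.832, 1.14 and 0.621 CPM in old sedentary and 0.774 to 1.31 CPM in young muscle, and the ratio of old means was 7.92. Gfap, the intermediate filament of astrocytes and of some Schwann cells, was at 1.68, 3.42 and 2.67 CPM against 0.253, 0.379 and 0.455 CPM. Its start window above holds 3 CpG pairs, and the median of all windows is 7. Mobp, a myelin protein of oligodendrocytes, was at 1.44, 1.81 and 1.99 CPM against 0.253, 0.0759 and 0.290 CPM. In Slc1a2, Gfap and Mobp no old exercised value overlapped any other library.

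**Figure D2:**
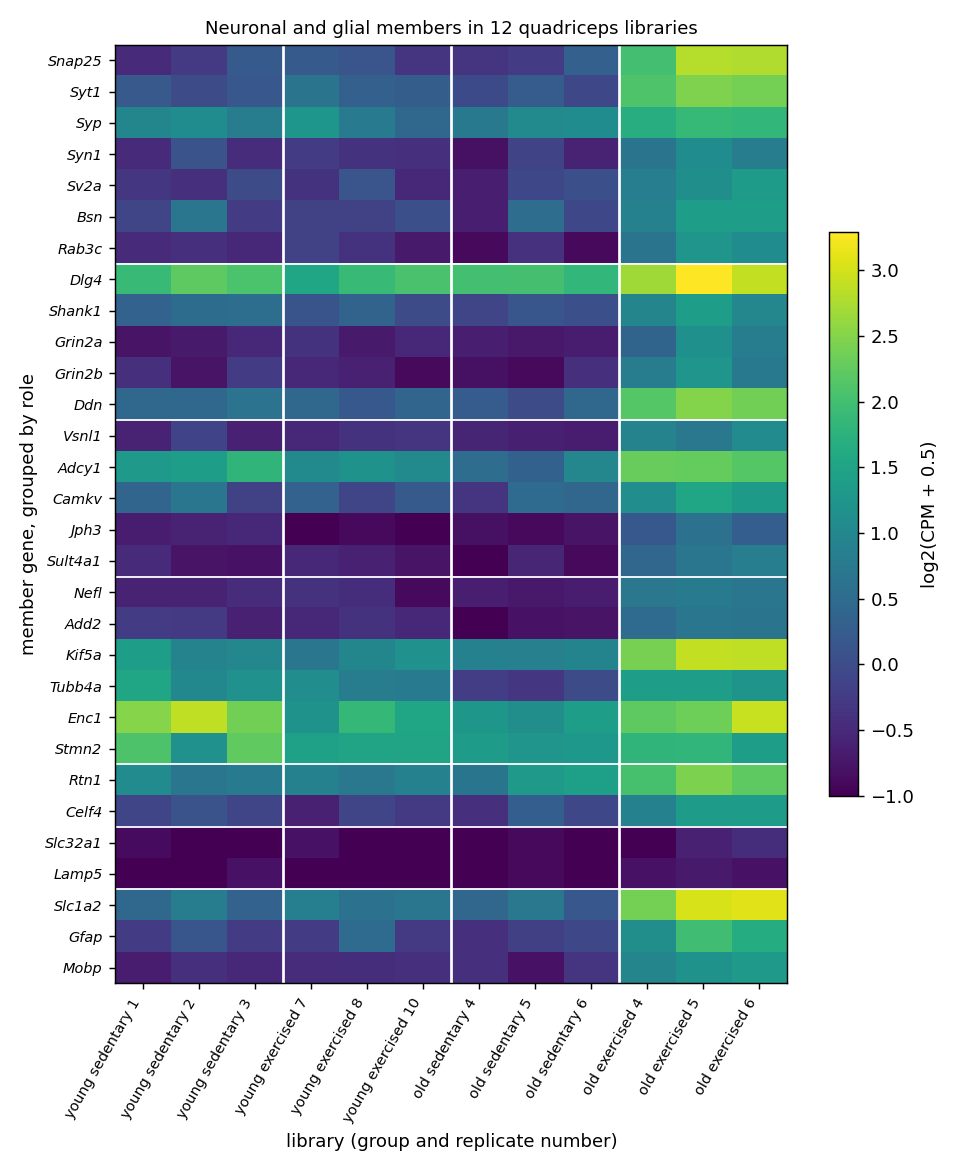
Heat map of log2(CPM + 0.5) for the 30 members (rows, grouped by role with white lines) in the 12 libraries (columns, 3 per group). The last 3 columns, old exercised muscle, hold higher values than the other 9 in 26 rows. In the Lamp5 row the gap is too small to see (0.0796 against 0.0774 CPM). The rows of Tubb4a, Enc1 and Stmn2 are also bright in young sedentary muscle.

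Among the old exercised libraries, library 5 was highest in 21 of the 30 members and library 6 in 7, and library 4 was lowest in 23. Over the 27 members with a mean of at least 1 CPM there, the ratio of library 5 to library 4 had a median of 1.36 and ran from 0.816 to 2.17. Library 4 is the only old library with high Xist, and with a term for sex in the edgeR fit 21 members were past the threshold in old mice.

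Some members were already well counted outside old exercised muscle. Dlg4, Enc1, Stmn2, Adcy1 and Kif5a had the most counts in the other 9 libraries. Without these 5 genes the remaining 25 members summed to 55.2 ± 10.1 CPM in old exercised and 10.4 ± 2.59 CPM in old sedentary muscle (SD, n = 3 each), a ratio of 5.33. The 5 genes alone gave 25.8 ± 3.12 and 9.68 ± 0.449 CPM, a ratio of 2.66. A mean of at least 1 CPM was reached by 27 members in old exercised muscle, 7 in old sedentary, 8 in young sedentary and 9 in young exercised muscle.

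Exercise in young mice was the comparison that had no part in choosing the members. Here 0 of the 28 tested members passed an adjusted p of 0.05 in edgeR's quasi-likelihood test, and 0.0131% of all genes tested were called. By the same test 3 members had an unadjusted p under 0.05, as did 1996 of all 15304 genes tested. Jph3, Sult4a1, Grin2a, Grin2b, Nefl, Mobp, Rab3c, Add2 and Vsnl1 had at most 10 counts in any young library. They passed the filter on low counts through old exercised muscle, so the test could hardly call them in young mice. DESeq2 called 1 member, Enc1, which was lower, among 242 genes called in all. The median log2 fold change was -0.08 in the members and -0.009 in all genes tested, and 13 of the 28 were positive. The fold change of Enc1 was -1.08 ± 0.25 (log2, SE; edgeR adjusted p = 0.171). Enc1 was lower in all 3 young exercised libraries than in any young sedentary one. Syt1 had a log2 fold change of 0.66 ± 0.28 (SE; edgeR adjusted p = 0.356).

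Snap25 and Slc1a2, which were among the highest in old exercised muscle, gave log2 fold changes in young mice of 0.47 (95% interval -0.63 to 1.58) and 0.38 (-0.28 to 1.04). Kif5a gave -0.07 (-0.57 to 0.44) and Adcy1 -0.41 (-0.95 to 0.14). Jph3 had 1 count in young exercised and 12 in young sedentary muscle, a ratio of 0.0810 with an exact 95% interval of 0.00189 to 0.547 for counting error only. Young exercised libraries lay below all young sedentary ones in 4 members (Ddn, Adcy1, Jph3 and Enc1), and 19.6% of all genes tested did so.

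**Figure D3:**
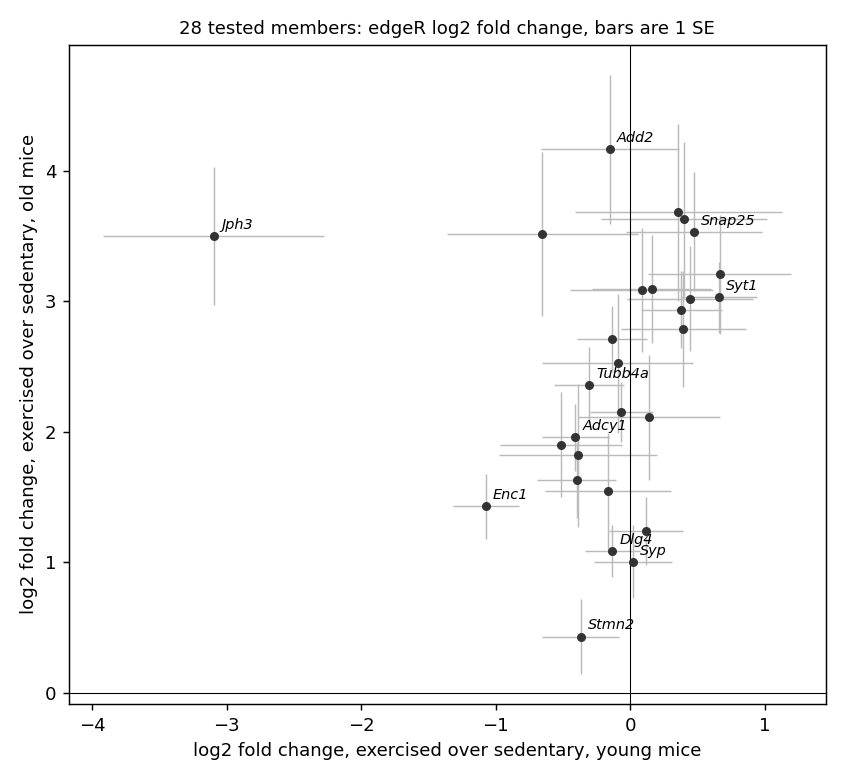
Log2 fold change of exercised over sedentary muscle in old mice (vertical axis) against that in young mice (horizontal axis) for the 28 tested members, with bars of 1 SE from edgeR. All points lie above 0 on the vertical axis, by which the members were chosen, and 13 lie right of 0 on the horizontal axis, where 0 passed the test. The position of Jph3 rests on 1 count in young exercised muscle.

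The difference between the responses (old minus young) shares the old libraries that chose the members and is given as a description. By edgeR's quasi-likelihood test 6 members were past an adjusted p of 0.05 and more positive in old mice, against 0.0392% of all genes tested (0.0523% in either direction). They were Ddn, Adcy1, Jph3, Kif5a, Tubb4a and Enc1. In Ddn, Adcy1, Jph3 and Enc1 every exercised library lay below the sedentary ones in young mice and above them in old mice. The members were listed for the difference in old mice, and 19.6% of all genes tested lay below in this way in young mice. The count was 0 when any library except young sedentary library 2 was left out, 8 without that one, and 0 with a term for sex. Of all genes 57 were called without young sedentary library 2 and 0 in each of the other fits named.

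Age was compared within sedentary and within exercised mice, and both comparisons share old libraries with the choice of the members. In sedentary muscle 4 members were lower in old mice by edgeR's quasi-likelihood test and 0 were higher, against 5.59% of all genes lower and 4.46% higher. They were Tubb4a (log2 fold change -2.18 ± 0.29, SE; edgeR adjusted p = 0.0023), Enc1 (-1.45 ± 0.25; edgeR adjusted p = 0.0070), Adcy1 (-1.07 ± 0.26; edgeR adjusted p = 0.0263) and Add2 (-2.21 ± 0.64; edgeR adjusted p = 0.0492). Enc1 and Tubb4a were the 2 left without old sedentary library 4, without library 5, with a term for sex, and in a fit of these groups only. With the sex term the edgeR adjusted p was 0.0733 for Adcy1 and 0.0827 for Add2. High Xist was found in 2 of the 3 young sedentary libraries and in 0 old sedentary ones. Old sedentary libraries lay below all young sedentary ones in 7 members, and 24% of all genes did so, and above them in 0, against 9.01%. In exercised muscle 26 members were higher in old mice, all tested ones except Stmn2 and Tubb4a, against 4.6% of all genes higher, and 0 were lower, against 5.27% (9.87% in either direction). That count was 16 without young exercised library 10.

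Other genes of the same structures were taken from lists chosen with earlier results known. In old mice, 4 of 18 other presynaptic genes were past the edgeR threshold and higher (Cplx1, Cplx2, Rims1 and Syn2), with a median log2 fold change of 1.08. Over all genes tested 0.497% were called higher, with a median of 0.008. Cplx2, a complexin that clamps SNARE complexes, averaged 5.13 ± 0.333 CPM in old exercised and 1.42 ± 0.388 CPM in old sedentary muscle (SD, n = 3 each). Of 18 tested postsynaptic genes 7 were higher, with a median of 1.33, among them the AMPA receptor subunits Gria1 (2.64 ± 0.888 against 0.359 ± 0.016 CPM) and Gria2 (2.85 ± 0.298 against 0.398 ± 0.180 CPM). Of 10 tested cytoskeletal genes 3 were higher (Kif1a, Map2 and Stmn3), with a median of 0.72. Of 11 tested neuronal gene regulators 0 passed, 4 had an unadjusted p under 0.05, and the median was 0.30. Rest, the repressor of neuronal genes on that list, averaged 12.9 ± 1.06 CPM in old exercised and 11.5 ± 0.621 CPM in old sedentary muscle. Some synaptic genes on these lists are well expressed in muscle. Vamp2, a vesicle SNARE, averaged 45.9 ± 3.49 CPM in old exercised and 43.2 ± 2.70 CPM in old sedentary muscle. Camk2a, a calcium-dependent kinase, averaged 390 ± 76.3 and 489 ± 48.2 CPM. In young mice 0 genes of any list passed. Of all 76 genes called higher in old mice, 20 were members (26.3% of the called genes and 66.7% of the members) and 17 were other listed genes.

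Markers of the cells that could hold these transcripts were measured in the same libraries, and their part in the result was not tested. The 8 forebrain excitatory neuron markers summed to 5.31 to 8.08 CPM in old exercised muscle and to 1.65 to 2.03 CPM in old sedentary, 1.89 to 3.06 CPM in young sedentary and 2.08 to 2.42 CPM in young exercised muscle. Of the 4 tested, Slc17a7, the vesicular glutamate transporter of cortex, was past the edgeR threshold in old mice, at 2.79, 3.42 and 3.58 CPM against 0.507, 0.379 and 0.248 CPM. The 8 inhibitory neuron markers summed to 4.19 to 5.66 CPM in old exercised and 1.99 to 2.46 CPM in old sedentary muscle, 3.64 to 4.93 CPM in young sedentary and 2.05 to 2.73 CPM in young exercised muscle. Gad1, the enzyme that makes GABA, was the 1 of 4 tested that passed. The 8 oligodendrocyte markers summed to 1.52 to 2.63 CPM in old exercised and 0.489 to 1.02 CPM in the other groups, and 0 of 2 tested passed. The 8 astrocyte markers summed to 37.7 to 73.6 CPM in old exercised, 26.8 to 45.4 CPM in old sedentary, 53.3 to 89.4 CPM in young sedentary and 40.7 to 53.5 CPM in young exercised muscle. Of the 7 tested 1 passed (Aldoc), and Aqp4, which fast muscle fibres also express, averaged 22.4 ± 5.98 and 14.6 ± 6.75 CPM in the old groups. The 8 striatal neuron markers summed to 9.02 to 12.6 CPM in old exercised and 10.9 to 11.4 CPM in old sedentary muscle (0 of 3 tested passed). In the same order, the 6 microglia markers summed to 10.3 to 11.9 and 10.4 to 14.1 CPM (0 of 5). Cerebellum and hindbrain markers (8) summed to 8.91 to 9.69 and 5.90 to 10.3 CPM (0 of 2). Pituitary markers (5) summed to 0.629 to 1.20 and 0.579 to 0.703 CPM (0 of 1).

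Markers of peripheral nerve differed among themselves. The 9 Schwann cell markers, with Pmp22 the most abundant, summed to 22.4 to 31.7 CPM in old exercised and 22.1 to 32.8 CPM in old sedentary muscle. They summed to 40.0 to 65.4 CPM in young sedentary and 37.0 to 47.3 CPM in young exercised muscle, and 0 of 8 tested were called for exercise in old mice, with a median log2 fold change of -0.14. The 5 genes of myelin shared by central and peripheral nerve, such as Mbp, summed to 27.1 to 35.2 CPM in old exercised and 19.5 to 26.5 CPM in old sedentary muscle, without overlap. They summed to 24.9 to 33.4 CPM in young sedentary and 22.7 to 25.7 CPM in young exercised muscle. For exercise in old mice all 5 had positive log2 fold changes, with a median of 0.47, and 0 passed the edgeR threshold, with 1 at an unadjusted p under 0.05. The 6 motor neuron markers summed to at most 0.591 CPM in any library, with Slc18a3, Isl1 and Mnx1 at 0 in all 12, and too few counts for a test. The 8 sensory ganglion markers summed to 14.4 to 19.2 CPM in old exercised and 8.56 to 13.3 CPM in old sedentary muscle, 14.8 to 16.6 CPM in young sedentary and 12.5 to 18.3 CPM in young exercised muscle. Avil made up most of that sum, Scn10a and Mrgprd were at 0 in all 12 libraries, and 0 of 3 tested passed. The 6 sympathetic neuron markers summed to 0.279 to 1.12 CPM in old exercised and 0.434 to 1.18 CPM in old sedentary muscle. Of these 1 was tested and 0 passed. The 13 neuromuscular junction genes, such as the acetylcholine receptor subunits, summed to 231 to 272 CPM in old exercised and 236 to 288 CPM in old sedentary muscle, 199 to 214 CPM in young sedentary and 184 to 188 CPM in young exercised muscle. Of these 13, 0 were called for exercise at either age, and 3 were higher with age in sedentary muscle (Chrna1, Chrnb1 and Musk) and 3 in exercised muscle (Chrna1, Chrnb1 and Lrp4) by edgeR. Of 15 denervation response genes 0 were called for exercise in old mice, and the median log2 fold change was 0.19.

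**Figure D4:**
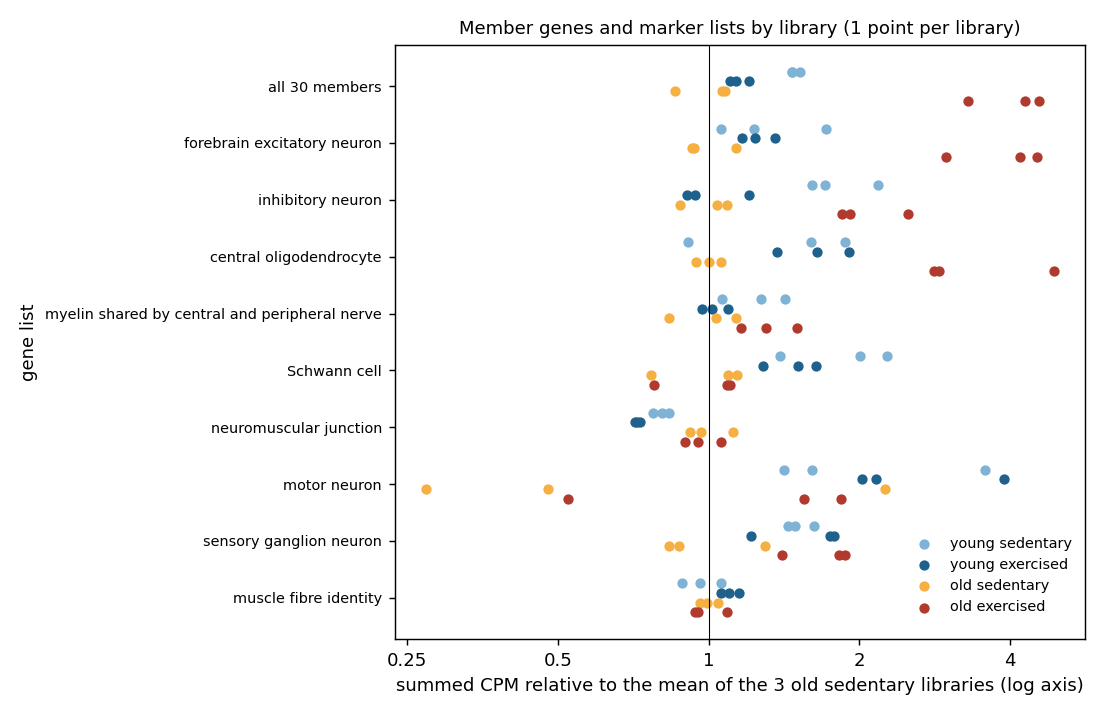
Summed CPM of the 30 members and of 9 marker lists (rows) in each library (1 point), relative to the mean of the 3 old sedentary libraries on a log axis, coloured by group. Old exercised points lie to the right of all others for the members, the forebrain excitatory neurons and the central oligodendrocytes, and overlap the old sedentary points for Schwann cells and the neuromuscular junction.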

How the data were processed

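Quadriceps RNA was sequenced in 12 libraries. The genome GRCm38 and the tools STAR 2.5.2b, Trimmomatic 0.36, bcl2fastq 2.20.0.422, Subread 1.5.2 with featureCounts, and DESeq2 are named in the submitters' processing notes. The deposited values are raw counts per gene, which per the file headers came from featureCounts. Not given in the sources used here are the strand setting, the handling of multiply aligned reads and the annotation release. Values of overlapping or antisense genes are therefore uncertain.

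Identifiers were matched to symbols for 48970 of 49315 genes and for all 30 members. CPM used plain library totals. Counts were fitted in R 4.3.3 with edgeR 4.0.16 (filterByExpr at its minimum count 10 and total 15, which left 15304 genes; TMM scaling; a robust quasi-likelihood fit of all 12 libraries with 1 coefficient per group and 8 residual degrees of freedom). P-values were adjusted over all genes tested by Benjamini-Hochberg, with a threshold of 0.05, and for sparsely counted genes the fold rests partly on the prior count that edgeR adds. Members and lists were chosen with earlier results of these data known, and 2 listed markers are not reported here. Members averaging 1 CPM or more in any group are given by library. From each list up to 3 called genes were to be named, or else the 2 most abundant as values, and the text names part of these and, chosen after their values were seen, the other called genes, Rest, Ttr, and the library markers. The 10 genes most alike were taken by Pearson correlation of log2(CPM + 0.5). Alternatives were other scaling, no filter, DESeq2 1.42.0, a sex term, fits of the compared groups only, a replicate block and leaving out each library. The fit was tested on simulated data. Groups follow the labels' age and treatment. The old groups share replicate numbers, and deviations of same-numbered libraries correlated at -0.13, 0.02 and 0.08, so the numbers were not taken as pairs.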

Additional observations from a re-analysis of the deposited data

Results flagged for a closer look

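A set of 6 members were marked because their exercise responses differed between old and young mice by a test of the difference itself (edgeR's quasi-likelihood interaction, Benjamini-Hochberg adjusted). The log2 difference, old minus young, was 2.84 for Ddn, 6.59 for Jph3, 2.22 for Kif5a, 2.66 for Tubb4a and 2.505 for Enc1, each with an edgeR adjusted p of 0.0417, and 2.37 for Adcy1 with an edgeR adjusted p of 0.0462. The old libraries in this difference are those by which the members were chosen, so it is no independent evidence. The value of Jph3 rests on 1 count in young exercised muscle. The calls were lost when any single library other than young sedentary library 2 was left out, and with a term for sex.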

How the results depend on the processing

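With TMM replaced by DESeq2's size factors in edgeR, every count of members called stayed within 1.5 times its reported value. For exercise in old mice the count of 20 ranged from 6 to 17 with 1 library left out. All genes called ranged from 10 to 63 in those fits, against 89 in the main fit. The replicate block, fitted to the old libraries only, called 0 members and 0 of 14568 genes. In that edgeR fit 27 members had an unadjusted p under 0.05, which is a description only, because this contrast chose the members. Same-numbered old libraries did not all correlate best with each other. No paired analysis was possible for young mice because those groups share no replicate number. For exercise in young mice DESeq2 called 1 member among 242 genes in all, and leaving out a library gave 0 to 0 members. For the difference between responses DESeq2 called 16 members among 430 genes in all, against 6 among 8 in the main fit. The sex term called 0 members and 0 genes. Leaving out a library gave 0 members and 0 genes, except 8 members among 57 genes without young sedentary library 2. For age in sedentary muscle the sex term gave 2, a fit of only the compared groups 2, and leaving out a library 2 to 4. All genes called there numbered 994, 876 and 315 to 1630, against 1538 in the main fit. For age in exercised muscle leaving out a library gave 16 to 23, with 615 to 1273 of all genes called, against 1511 in the main fit. The fold change of Kif5a in young mice, -0.07 on the log2 scale, ranged from -0.22 to 0.13 with 1 library left out. It changed sign without young sedentary library 1 (0.13) and without young exercised library 7 (0.07). Of the 37 members and listed genes called in old mice, 202 of 259 values under other alternatives and 87 of 222 with 1 library left out stayed past the threshold, and the rest kept their direction without passing it. The cause of these changes was not tested. The summed CPM of the members ranged, with 1 library left out, from 29.4 to 29.96 in young sedentary, 22.4 to 23.4 in young exercised, 19.2 to 21.5 in old sedentary and 75.8 to 88.5 in old exercised muscle, and TMM scaling gave 28.3 in young sedentary muscle. Depth limits the members near 1 count per library, Slc32a1, Lamp5 and Jph3 above all, and 3 libraries per group limit every test.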

Other observations

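Outside the members and lists, the 10 genes whose log2(CPM + 0.5) was most like the members' mean over the 12 libraries were Mir124a-1hg, Hpcal4, Phyhipl, Gpr26, Scg5, Cacna1e, Tmem59l, Kndc1, Nrsn1 and Slc6a11. Their Pearson correlation ran from 0.962 to 0.978 over 12 libraries, and over the 9 libraries without old exercised muscle from -0.361 to 0.601, so the likeness is mostly that of the 3 old exercised libraries. Mir124a-1hg, a host transcript of the neuronal microRNA miR-124, averaged 0.938 CPM in old exercised and 0.0529 CPM in old sedentary muscle. Cacna1e, a neuronal calcium channel subunit, averaged 1.85 and 0.256 CPM. Hpcal4, a neuronal calcium sensor, averaged 2.44 and 0.282 CPM, and Slc6a11, a GABA transporter of astrocytes, 0.621 and 0.0368 CPM. In young mice 0 of these 10 genes passed the edgeR threshold. Of the 76 genes called higher in old exercised muscle, 39 were neither members nor on a list.

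Ttr, a choroid plexus and liver transcript, was at 5.03, 7.66 and 6.80 CPM in old exercised muscle and at 2.39, 1.82 and 1.28 CPM in old sedentary muscle. Young sedentary library 1 held more of it, at 11.8 CPM, and the other young libraries had 1.47 to 2.72 CPM. Ttr is on a list of 7 choroid plexus and ependyma markers. Of these 2 were tested, and 0 passed the edgeR threshold for exercise in old mice.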
